A study of Mus musculus with 2 samples.

Results

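A set of 223 cell barcodes from the mouse aortic arch held transcripts that mark endothelial cells together with transcripts that mark fibroblasts. They were chosen from single-cell counts of unique molecular identifiers (UMIs, tags that count each captured transcript once) by a rule on measured values. A barcode was first kept if it had at least 200 genes, at least 200 UMIs and at most 30% of its UMIs from mitochondrial genes. It was then taken as mixed if it had at least 1 UMI of Pecam1 and at least 1 of Cdh5, at least 3 of the 5 fibroblast genes Dcn, Col1a1, Col1a2, Col3a1 and Lum, and under 0.2% of its UMIs from the macrophage genes C1qa, C1qb and C1qc. Of 8155 kept barcodes in all, 223 met the rule.

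The barcodes came from 2 droplet libraries, 1 per diet. Both were made from Apoe-/- male C57BL/6 mice, a strain that lacks apolipoprotein E and develops atherosclerosis, at 16 weeks of age. The ND animals ate control chow and the HFD animals a high-fat high-cholesterol diet, which began after weaning. Each library pooled 2 aortas, and the wall was perfused, cut from the arch and digested to single cells with an enzyme from a lung dissociation kit. The 2 animals of a library cannot be told apart and no diet had a second library, so no difference was tested here. Every interval given is a 95% interval that covers counting error only, not the spread between animals. Apoe itself was at 46.3 counts per 1000000 UMIs (CPM) in ND and 49.1 CPM in HFD. No source used here states which part of the gene the allele lacks, so these levels do not check the genotype, which both diets share.

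Endothelial cells line vessels and are held together by junctional proteins such as PECAM1 and VE-cadherin, the product of Cdh5, while fibroblasts of the outer wall secrete fibrillar collagens and small proteoglycans such as decorin, the product of Dcn. A barcode that carries both programmes can be a droplet that caught an endothelial cell and a fibroblast at once, a droplet that took up free RNA, or a single cell that expresses both sets of genes. Endothelial-to-mesenchymal transition, in which endothelial cells lose their junctions and acquire mesenchymal transcription factors and matrix products, is the usual name for the last of these. The counts alone do not show which of these a given barcode was.

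In ND, 127 of 5416 kept barcodes were mixed, a share of 2.34% with an exact binomial interval of 1.96% to 2.78%. In HFD, 96 of 2739 were mixed, a share of 3.50% with an interval of 2.85% to 4.26%. The share was higher in HFD beyond counting error, but the 2 libraries also differed in depth, mitochondrial share and cell make-up. The median kept barcode held 3732.5 UMIs in ND and 5336 in HFD, of which 16.8% and 21.9% were mitochondrial. Pecam1 and Cdh5 were both found in 2405 kept barcodes in ND (44.4%) and 1447 in HFD (52.8%). At least 2 B cell markers were found in 11.9% and 1.53% of kept barcodes, and at least 2 T cell markers in 6.96% and 2.70%. At equal depth, given below, the intervals of the diets overlapped. No mixed barcode sequence was shared between the libraries, and 1 kept barcode was.

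Beside the mixed barcodes, 3 other groups of kept barcodes were set. The endothelial reference had Pecam1 and Cdh5 and none of the 5 fibroblast genes (1643 in ND, 968 in HFD). The fibroblast reference had at least 3 of the 5 and neither Pecam1 nor Cdh5 (923 in ND, 390 in HFD). Barcodes with Pecam1, Cdh5 and only 1 or 2 of the 5 (605 and 324) lay between. All 3 were under the same limit on C1q genes.

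Mixed barcodes were deeper than both references. Their median was 7678 UMIs in ND, with a range of 1543 to 44486, against 3792 in the endothelial and 3763 in the fibroblast reference. In HFD the median was 6731 UMIs, with a range of 1979 to 36208, against 5326 and 4390. The ratio of medians to the endothelial reference was thus 2.02 in ND and 1.26 in HFD, and to the fibroblast reference 2.04 and 1.53. The rule counts detected genes, and detection goes up with depth, so this excess is not independent of the rule. The mitochondrial share was lower in mixed barcodes, with a median of 10.6% in ND and 17.9% in HFD, against 17.1% and 22.5% in the endothelial reference.

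The threshold of 3 fibroblast genes did not fall at a gap in the counts. Just inside it, 62 ND barcodes had exactly 3 of the 5, with a median depth of 8041 UMIs. Just outside, 140 had exactly 2, with a median of 6508 UMIs. In HFD, 30 barcodes had exactly 3 and 66 had exactly 2, at medians of 10115 and 7035 UMIs. At the far end, 38 ND and 37 HFD barcodes carried all 5.

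No doublet call was used to choose the barcodes. Scrublet, which scores each barcode by its likeness to simulated pairs, called 0 kept barcodes in ND and 1 in HFD with its own threshold, so that threshold gave no usable call. By rank, the highest 6% of scores in each library held 44 of the 127 ND mixed barcodes (34.6%, interval 26.4% to 43.6%) and 31 of the 96 HFD ones (32.3%, 23.1% to 42.6%). They held 4.63% and 2.89% of the endothelial reference and 4.88% and 3.08% of the fibroblast reference. As a pooled set, mixed barcodes were thus over-represented among the highest scores, while most of them lay outside. The kinds, defined below, differed in this. Capillary-marker mixed barcodes had 41.8% in ND and 35.9% in HFD among these scores. The capillary-marker part of the endothelial reference had 4.05% and 2.30%. Luminal-marker mixed barcodes had 21.6% (9.83% to 38.2%) and 15.0% (3.21% to 37.9%). The luminal-marker part of the reference had 14.1% (6.64% to 25.0%) and 15.4% (4.36% to 34.9%), so for this kind the intervals overlapped.

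To describe the mixed barcodes, 2 lists with no gene of the rule were summed per barcode. They held 20 endothelial genes (Tie1, Tek, Kdr, Flt1 and others) and 20 fibroblast genes (Pdgfra, Gsn, Fbn1, Mfap5 and others). Mixed barcodes held a median of 77.5 endothelial-list UMIs per 10000 in ND and 78.5 in HFD. The endothelial reference held 130 in both, and the fibroblast reference 3.74 and 4.59. For the fibroblast list, mixed barcodes held a median of 34.4 UMIs per 10000 in ND and 105 in HFD. The fibroblast reference held 333 and 268, and the endothelial reference 1.18 and 1.04. The median mixed barcode therefore lay between the references on both lists. The endothelial reference lacked the 5 fibroblast genes by choice, and the fibroblast reference lacked Pecam1 and Cdh5. A position between them was thus likely in advance, so it does not test the label.

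The balance of the 2 lists varied widely from barcode to barcode. As a share of the UMIs on both lists, the fibroblast list made up a median of 33.3% in ND and 59.8% in HFD. In ND, 59 of the 127 barcodes had a fibroblast share under 30%, 37 lay from 30% to 70%, and 31 were over 70%. In HFD the same classes held 29, 30 and 37 of 96. Most mixed barcodes were therefore outside 30% to 70%. The endothelial reference held 130 UMIs per 10000 on its list, and the fibroblast reference 333 (ND) and 268 (HFD) on its own. Equal UMIs on the 2 lists are thus not an even blend of the programmes, and these classes do not show which dominated. Luminal-marker barcodes (defined below) with none of the 5 genes already had a median share of 20.2% in ND and 16.1% in HFD. The luminal-marker mixed barcodes had 27.3% and 28.5%, so for them the lists set the mixed barcodes less far apart.

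**Figure D1:**
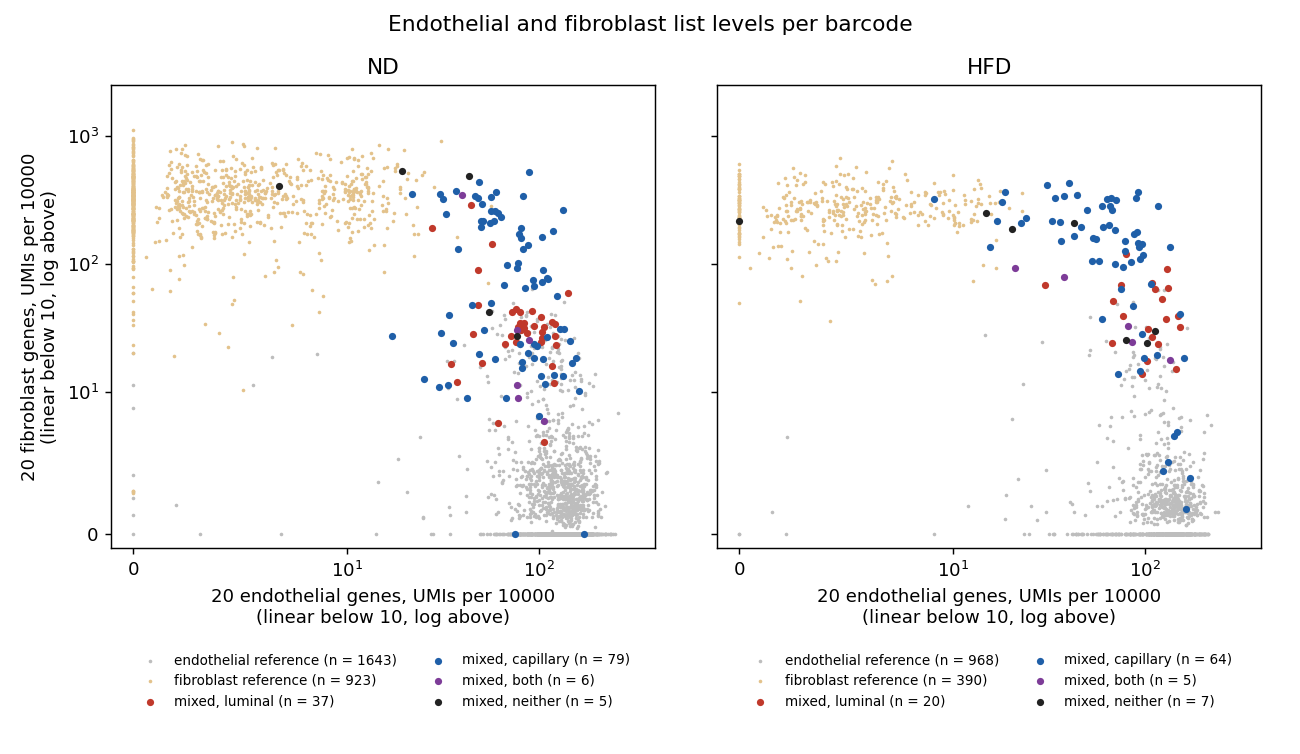
Each point is a barcode, with its UMIs per 10000 on the 20 endothelial genes (horizontal) and the 20 fibroblast genes (vertical), ND left and HFD right; both axes are linear below 10 and logarithmic above. Mixed barcodes, coloured by the endothelial markers they carry, run from the endothelial reference (grey) toward the fibroblast reference (tan); luminal-marker barcodes lie mostly in the lower part of that band and capillary-marker barcodes along all of it.

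As pooled sums, part of the endothelial list was lower in mixed barcodes than in the endothelial reference. A gene is counted as higher or lower here if its CPM differed at least 2-fold between the summed groups. Against the endothelial reference, 1 of 20 list genes was higher and 7 were lower in ND, with a median log2 ratio of -0.22, where, over the 9744 genes that reached 50 UMIs in these groups, 12% were higher and 5.34% lower. In HFD, 2 were higher and 5 lower, with a median of -0.12, against backgrounds of 13.6% and 6.41% of 8535 genes. Claudin-5, the tight junction protein encoded by Cldn5, was among the lower genes, at 962 CPM in ND mixed barcodes against 2859 in the reference (log2 ratio -1.57, interval -1.65 to -1.49). In HFD Cldn5 was at 1117 against 2765 (-1.31, -1.40 to -1.22). Ramp2, a co-receptor for adrenomedullin, was at 620 against 416 in ND (0.58, 0.46 to 0.69) and at 942 against 440 in HFD (1.10, 0.98 to 1.21). Ptprb, the phosphatase that acts on VE-cadherin and TIE2, stayed within 2-fold in both libraries, at -0.29 and -0.13. The pooled groups differed in kinds of endothelium, defined below. Luminal-marker barcodes held 481658 of 1275913 UMIs in ND mixed barcodes and 407673 of 8141088 in the ND reference. Within capillary-marker barcodes, 0 list genes were higher in either library, and 6 in ND and 1 in HFD were lower. The part of the kinds in the pooled ratios was not tested.

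Most genes of the fibroblast list were lower in mixed barcodes than in the fibroblast reference. All 20 of its genes were higher in mixed barcodes than in the endothelial reference in both libraries, as the rule makes likely. Against the fibroblast reference, 0 were higher and 19 lower in ND (median log2 ratio -2.09), where 11% of 8941 genes were higher and 10.2% lower. In HFD, 0 were higher and 16 lower (median -1.46), where 11.8% of 6640 were higher and 8.48% lower. Gsn, which encodes the actin-severing protein gelsolin, was at 3159 CPM in ND mixed barcodes, against 66.5 in the endothelial and 14576 in the fibroblast reference. In HFD Gsn was at 3107, against 44.7 and 9675. Serping1, the C1 inhibitor of complement, was at 429 and 754 in the mixed barcodes of ND and HFD, and at 2078 and 2237 in the fibroblast reference. Mfap5, a microfibril protein, was at 405 and 546 against 1653 and 1331, and Fstl1, a secreted glycoprotein, at 952 and 1334 against 1990 and 2289.

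The endothelial side of the mixed barcodes was of more than 1 kind. Cytl1, Vwf and Vcam1 mark the endothelium that lines the aorta itself, and Gpihbp1, Cd36, Aqp1, Rbp7, Car4 and Cxcl9 mark capillary endothelium of the small vessels in and around the wall. A barcode was called luminal-marker here if it had at least 2 of the 3 luminal and under 3 of the 6 capillary markers, and capillary-marker if it had at least 3 of the capillary and under 2 of the luminal markers. These thresholds were chosen after the values were seen. In ND, 37 mixed barcodes were luminal-marker, 79 capillary-marker, 6 carried both sets and 5 neither. In HFD the same classes held 20, 64, 5 and 7. At least 2 lymphatic markers, such as the transcription factor gene Prox1, were found in 6 ND (4.72%) and 0 HFD mixed barcodes. The endothelial reference had them in 1.95% and 1.65%. At least 2 of the arteriolar markers Stc1, Hey1 and Sema3g were found in 24 ND (18.9%) and 16 HFD (16.7%) mixed barcodes. The endothelial reference had these in 16.8% and 24.2%. Of the capillary-marker mixed barcodes, 19 of 79 in ND and 11 of 64 in HFD had them.

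Luminal-marker barcodes met the fibroblast part of the rule more often. Of all kept luminal-marker barcodes with Pecam1 and Cdh5, 37 of 278 in ND were mixed (13.3%, interval 9.55% to 17.9%) and 20 of 117 in HFD (17.1%, 10.8% to 25.2%). Of the capillary-marker ones, 79 of 1997 were mixed in ND (3.96%, 3.14% to 4.91%) and 64 of 1259 in HFD (5.08%, 3.94% to 6.45%). The intervals of the kinds did not overlap in either library. Depth moved with this difference, since the median luminal-marker barcode held 7337.5 UMIs in ND and 8605 in HFD, and the median capillary-marker one 3960 and 5470.

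The number of fibroblast genes per barcode was distributed differently in the kinds. Under the limit on C1q genes, the ND luminal-marker barcodes with 0, 1, 2, 3, 4 and 5 of the fibroblast genes numbered 64, 102, 66, 29, 6 and 2. The ND capillary-marker barcodes numbered 1507, 334, 63, 28, 18 and 33 in the same order. In HFD the luminal-marker series was 26, 34, 28, 12, 6 and 2, and the capillary-marker series 914, 207, 32, 14, 20 and 30. The luminal-marker counts thus peaked at 1 gene and fell off steadily to 5. The capillary-marker counts fell to a low at 3 or 4 genes and rose again at 5. With at least 4 genes required, 2.88% of luminal-marker and 2.55% of capillary-marker barcodes were mixed in ND, and 6.84% and 3.97% in HFD. With all 5 required the shares were 0.719% and 1.65% in ND and 1.71% and 2.38% in HFD, so the order of the kinds depended on the number of genes asked for.

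**Figure D2:**
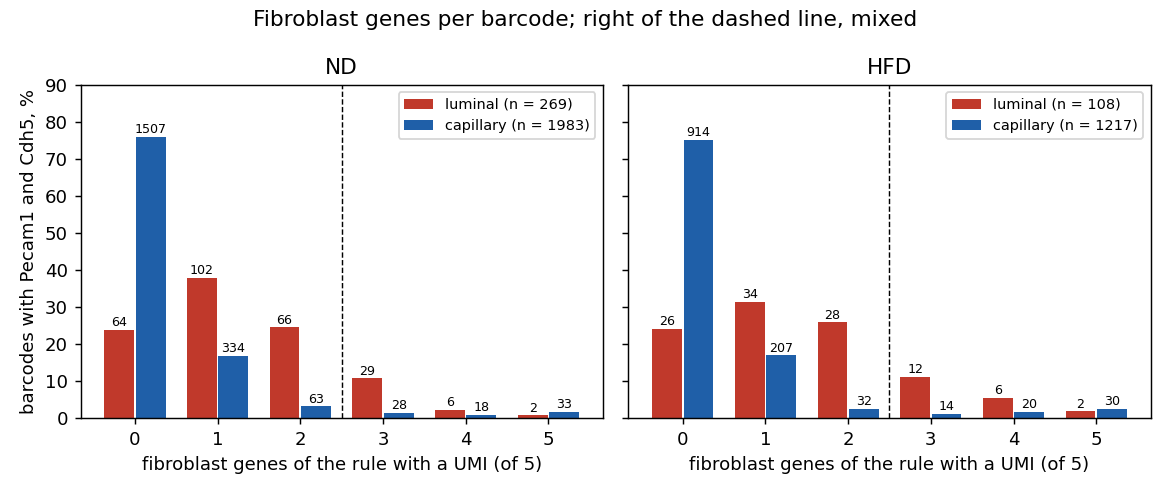
Share of barcodes with Pecam1 and Cdh5 (vertical, percent of the kind) by the number of the 5 fibroblast genes detected (horizontal), for luminal-marker and capillary-marker barcodes of each library. Luminal-marker barcodes peak at 1 gene and decline, while capillary-marker barcodes are mostly at 0 and rise again slightly at 5.

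Which of the 5 genes were present also differed, as a description of what the rule used. Dcn, on chromosome 10 (mm10, 97479609 to 97518143, plus strand), was found in 35 of 37 ND and 20 of 20 HFD luminal-marker mixed barcodes. Col1a1, on chromosome 11 (94936224 to 94953042, plus strand) and encoding the main chain of type I collagen, was found in only 8 of 37 and 3 of 20 of them. Among capillary-marker mixed barcodes, Dcn was found in 62 of 79 and 60 of 64, and Col1a1 in 70 of 79 and 54 of 64. In the summed counts there were 58.2 Dcn UMIs per Col1a1 UMI in ND luminal-marker mixed barcodes (interval 37.9 to 94.4) and 21.9 in HFD (11.7 to 46.3). Capillary-marker mixed barcodes had 3.81 (3.43 to 4.23) and 5.33 (4.67 to 6.09), above the ratios of the fibroblast reference (intervals 2.94 to 3.07 in ND, 3.23 to 3.48 in HFD). Both genes belong to the rule, so these ratios are a description. Relative to Gsn, which the rule did not use, luminal-marker mixed barcodes held 5.34 and 3.37 Dcn UMIs per Gsn UMI, against 0.581 and 0.669 in the fibroblast reference and 0.521 and 0.554 in the capillary-marker mixed barcodes. Relative to Col3a1, which the rule used, luminal-marker mixed barcodes held 12.7 Dcn UMIs in ND but only 1.68 in HFD. The fibroblast reference held 1.88 and 1.58, and the capillary-marker mixed barcodes 1.96 and 1.63. Against Col3a1 the luminal-marker ratio was thus high in ND only. High ratios to Col1a1 and Gsn were not particular to the mixed barcodes of the luminal kind. Luminal-marker barcodes with 1 or 2 of the genes had 253 Dcn UMIs per Col1a1 UMI in ND (108 to 781) and 353 in HFD, where the ratio rested on 1 Col1a1 UMI, and 5.25 and 4.41 per Gsn UMI.

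Genes of the fibroblast list were higher in capillary-marker mixed barcodes than in capillary-marker barcodes without the fibroblast genes. The reference here is the capillary-marker part of the endothelial reference (1507 barcodes in ND, 914 in HFD). All 20 fibroblast-list genes were higher in both libraries, with median log2 ratios of 6.32 in ND and 6.87 in HFD. Over all genes, 9.97% of 9086 and 9.82% of 7993 were higher. The rule chose the 2 groups to differ in the 5 fibroblast genes, so this direction was likely in advance. Gsn was at 4871 CPM against 57.2 in ND and at 5652 against 39.7 in HFD. Pdgfra, the receptor that marks fibroblasts, was at 132 and 222 against 1.63 and 1.28. Of the endothelial list, 6 genes were lower in ND (median -0.82, background 5.13%) and 1 in HFD (median -0.68, background 5.3%). Cd36 and Gpihbp1 are among the markers that chose both groups, so their levels are a description only. Cd36, the fatty acid transporter, was at 2150 against 3844 in ND and at 3342 against 5483 in HFD, and Gpihbp1, the anchor of lipoprotein lipase on capillaries, at 1148 against 2442 and at 1245 against 2256.

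Compared with the fibroblast reference, the capillary-marker mixed barcodes held a part of the fibroblast programme in ND and a larger part of it in HFD. All 20 fibroblast-list genes were lower in ND (median log2 ratio -1.55, background 12.6%), and 4 of 20 in HFD (median -0.82, background 7.61%). The fibroblast share of the 2 lists had a median of 46.9% in ND and 68.9% in HFD. In HFD, 32 of 64 had a share over 70%, against 24 of 79 in ND. Genes that mark a Pi16 fibroblast subset (Pi16, Dpp4 and Sema3c) were detected, at least 2 of 3, in 22 of 79 ND and 22 of 64 HFD capillary-marker mixed barcodes. The same was true of 4 of 37 and 1 of 20 luminal-marker ones. Over all mixed barcodes, Pi16-subset markers were found in 30 in ND (23.6%) and 25 in HFD (26.0%). Markers of other fibroblast subsets were found in fewer mixed barcodes. Fmod-subset markers were in 5 ND and 3 HFD barcodes, Inmt-subset markers in 6 and 9, and Cxcl14-subset markers in 6 and 13. Pi16-subset markers also led in the fibroblast reference, at 39.8% and 56.2%. There, Fmod-subset markers were in 15.7% and 5.13%, Inmt-subset markers in 16.8% and 13.6%, and Cxcl14-subset markers in 11.6% and 15.6%. Pi16, which encodes a secreted peptidase inhibitor, was at 1635 and 2062 CPM in the capillary-marker mixed barcodes and at 4696 and 3696 in the fibroblast reference.

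Luminal-marker mixed barcodes carried much less of the fibroblast programme. Their reference is the luminal-marker part of the endothelial reference, which held 64 barcodes in ND and 26 in HFD. Only 9 of the 20 fibroblast-list genes in ND and 7 in HFD reached 50 UMIs over both groups. Of these, 2 were higher in ND (median log2 ratio 0.24, where 2.65% of 2791 genes were higher) and 3 in HFD (median 0.96, where 5.7% of 1350 were higher). Gsn was at 475 CPM against 174 in ND (log2 ratio 1.45, interval 1.06 to 1.85) and at 236 against 97.0 in HFD (1.28, 0.48 to 2.17). Serping1 was at 189 against 159 in ND (0.24, -0.23 to 0.73), an interval that includes no difference. Against the capillary-marker mixed barcodes, 0 of 20 fibroblast-list genes were higher and 16 lower in ND (median -2.20, backgrounds 9.67% and 14.6%). In HFD 15 of 20 were lower and 1 higher (median -3.25, backgrounds 14.9% and 12%). Against the fibroblast reference, 0 were higher and 17 lower in ND (median -4.01, backgrounds 9.67% and 16.4%), and 1 was higher and 16 lower in HFD (median -4.13, backgrounds 12.1% and 15.7%).

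Cytl1 and Vwf are among the markers that chose both the luminal-marker mixed barcodes and their reference, so their levels are a description only. Cytl1, a secreted cytokine-like protein whose gene lies on chromosome 5 (37735519 to 37739820, plus strand), was at 4499 CPM in ND against 5443 in the luminal-marker reference, and at 2598 against 4499 in HFD. Vwf, the clotting factor stored in endothelial granules, was at 1244 against 1793 and at 1693 against 1837. Of the endothelial list, 2 of 18 genes were higher and 1 lower in ND (background 2.65% and 0.932%), and 1 of 16 was higher and 0 lower in HFD (5.7% and 2.44%). Cldn5 was the gene lower in ND, at 174 against 442 (-1.34, -1.73 to -0.96).

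**Figure D3:**
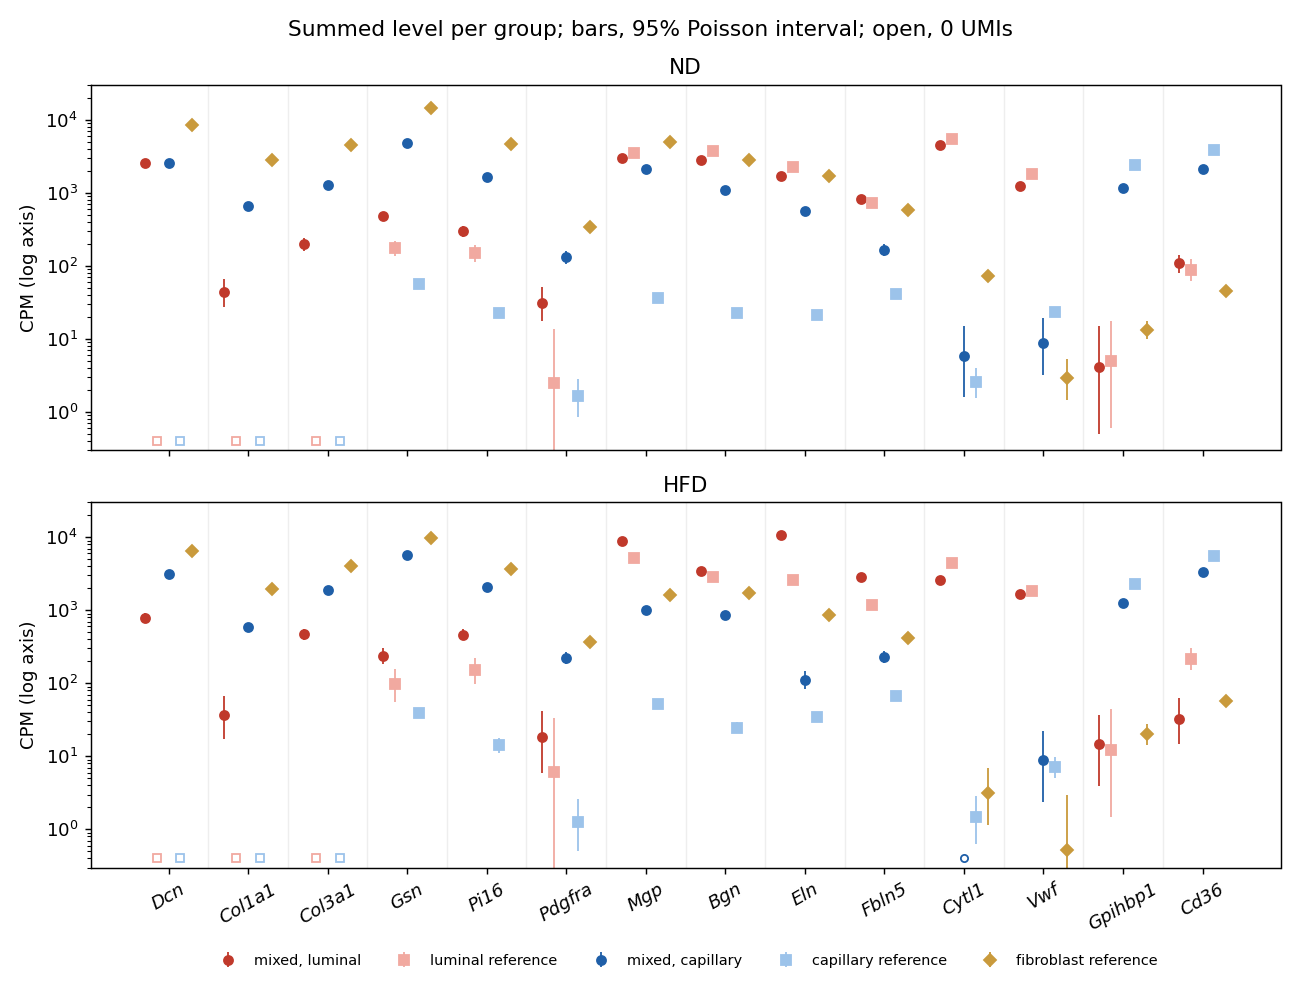
Summed level of 14 genes (CPM, log axis) in the luminal-marker and capillary-marker mixed barcodes, their endothelial references and the fibroblast reference, ND above and HFD below, with 95% Poisson intervals; open symbols mark 0 UMIs, which the rule sets for the first 3 genes in the endothelial references. Gsn, Pi16 and Pdgfra lie below the fibroblast level in capillary-marker mixed barcodes and further below it in luminal-marker ones, while Mgp, Bgn and Eln are high in luminal-marker barcodes whether mixed or not.

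Much of the matrix seen in luminal-marker mixed barcodes was also present in luminal-marker barcodes without the 5 fibroblast genes. Mgp, the inhibitor of vascular calcification (chromosome 6, 136872435 to 136875823, minus strand), was at 2996 CPM in the ND mixed and 3456 in the ND reference barcodes. Bgn, the proteoglycan biglycan, was at 2776 and 3778, and Eln, the elastic fibre protein elastin (chromosome 5, 134702593 to 134747323, minus strand), at 1684 and 2257. All 3 were scarce in the ND capillary-marker reference, at 36.6, 22.6 and 21.5. In ND, 1 of the 10 genes of the vessel wall matrix list was higher in luminal-marker mixed barcodes than in their reference (median -0.17, background 2.65%), and in HFD 2 of 9 were (median 0.75, background 5.7%), Eln and Fbln5. For capillary-marker mixed barcodes the same count was 8 of 9 in ND (median 3.49, background 9.97%) and 7 of 9 in HFD (median 1.78, background 9.82%). Here too the rule makes a higher level of genes found in fibroblasts likely.

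Genes of endothelial-to-mesenchymal transition were counted by kind against the same references. These lack the 5 fibroblast genes by choice, so genes found in fibroblasts were likely to be higher in mixed barcodes. Of 5 transcription factors with enough counts, 2 were higher in capillary-marker mixed barcodes in each library (median log2 ratio 0.62 in ND and 0.27 in HFD, backgrounds 9.97% and 9.82%). In luminal-marker mixed barcodes 0 of 3 were higher in ND and 0 of 1 in HFD (backgrounds 2.65% and 5.7%), too few genes to set beside the capillary kind. Twist1, a factor of mesenchymal development, was at 139 CPM in ND luminal-marker mixed barcodes and 147 in their reference (-0.08, -0.61 to 0.45). In HFD it was at 47.2 and 60.6 (-0.36, -1.66 to 0.99). Prrx1, another mesenchymal factor, was at 142 and 178 in capillary-marker mixed barcodes against 1.77 and 2.91 in their reference, and at 304 and 281 in the fibroblast reference. Zeb1, which represses E-cadherin, was at 113 and 136 in all mixed barcodes and at 107 and 121 in the endothelial reference, within 2-fold in both libraries.

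Of 5 mesenchymal products, 5 were higher in capillary-marker mixed barcodes in ND (median 4.24, background 9.97%) and 2 in HFD (median 0.98, background 9.82%). In luminal-marker mixed barcodes 1 of 5 was higher in ND (median 0.69, background 2.65%) and 2 in HFD (median 0.99, background 5.7%). Vim, the intermediate filament vimentin, was at 3231 CPM in ND luminal-marker mixed barcodes against 2392 in their reference (0.43, 0.32 to 0.55), and at 3038 against 1649 in HFD (0.88, 0.68 to 1.08). Fn1, fibronectin, was at 1497 against 1175 in ND (0.35, 0.18 to 0.52) and at 2220 against 715 in HFD (1.63, 1.35 to 1.93). In capillary-marker mixed barcodes Fn1 was at 712 and 1483 against 17.6 and 37.7, below the 1774 and 3630 of the fibroblast reference. Acta2, smooth muscle actin, was at 647 in ND capillary-marker mixed barcodes and at 30.8 in HFD, against 16.9 and 27.0 in their reference. In ND 11 of 79 capillary-marker mixed barcodes had a UMI of Acta2, and 1 of them held 38.8% of the count.

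Basement membrane genes are made in quantity by capillary endothelium. In capillary-marker mixed barcodes 4 of 12 were higher than in the capillary-marker reference in ND (median log2 ratio 0.29) and 5 of 12 in HFD (median 0.54), and 0 were lower, where 9.97% and 9.82% of all genes were higher and 5.13% and 5.3% lower. Sparc, a collagen-binding protein, was at 2517 against 1895 CPM in ND and at 2484 against 2095 in HFD. Col4a1, a chain of type IV collagen, was at 1029 against 1296 and at 1181 against 1529. Among TGF-beta ligands and receptors, 2 of 8 in ND and 2 of 6 in HFD were higher (medians 0.16 and 0.08) and 0 were lower, beside the same backgrounds. Tgfbr2, the type II TGF-beta receptor, was at 180 and 317 against 119 and 103 in the capillary-marker reference. Of 10 immediate early and heat shock genes, which rise with tissue dissociation, 0 were higher or lower in either library (medians -0.30 and -0.37). In luminal-marker mixed barcodes 1 of 9 was lower than in their reference in ND (background 0.932%) and 5 of 9 in HFD (median -1.07, background 2.44%), where the reference held 26 barcodes. Egr1, the most abundant of them in mixed barcodes, was at 458 CPM against 1243 in HFD and at 1242 against 871 in ND.

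Depth was equalised to see how far detection alone could set these shares. Every barcode was thinned at random to 1000 UMIs, with the kinds taken from the full counts. Dcn was then found in 71 of 277 luminal-marker barcodes with Pecam1 and Cdh5 in ND (25.6%, interval 20.6% to 31.2%) and in 22 of 117 in HFD (18.8%, 12.2% to 27.1%). It was found in 93 of 1995 capillary-marker ones in ND (4.66%, 3.78% to 5.68%) and in 72 of 1259 in HFD (5.72%, 4.50% to 7.15%). Lymphocyte barcodes, which should lack Dcn, are given beside these as a level that includes free RNA and any mixed droplets, since single B and T cell barcodes held up to 99 and 111 Dcn UMIs before thinning. Dcn was found in 34 of 643 B cell barcodes (5.29%) and 27 of 375 T cell barcodes (7.20%) in ND, and in 5 of 42 and 4 of 74 in HFD. Of the 643 thinned ND B cell barcodes, 15 held at least 3 of the 5 fibroblast genes. Before thinning, 48.6% of ND luminal-marker barcodes had a UMI of Dcn. In ND, capillary-marker barcodes as a whole were near the level in lymphocyte barcodes and luminal-marker ones were above it. In HFD, with few lymphocytes, the interval of the luminal-marker share overlapped those of the B and T cell barcodes.

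For Col1a1 the thinned shares did not separate the kinds. It was found in 4 of 277 luminal-marker barcodes in ND (1.44%) and in 0 of 117 in HFD, which allows a share of up to 3.10%. It was found in 42 of 1995 capillary-marker barcodes in ND (2.11%) and 30 of 1259 in HFD (2.38%), and in 14 of 643 B cell barcodes in ND (2.18%). In HFD it was found in 2 of 42 B cell and 5 of 74 T cell barcodes. In ND T cell barcodes it was found in 5 of 375 (1.33%), a share below both kinds. The intervals of both kinds overlapped those of the B and T cell barcodes in each library. Col1a1 was therefore not set apart from the level in lymphocyte barcodes in either kind.

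The whole rule was rarely met at equal depth. After thinning, 13 of 5353 kept barcodes in ND (0.243%) and 13 of 2739 in HFD (0.475%) were mixed. The intervals of the diets, 0.129% to 0.415% and 0.253% to 0.810%, overlapped. Of the barcodes still mixed, 10 and 11 were capillary-marker and 2 and 1 luminal-marker. The difference between the kinds in the share that were mixed, seen in the full counts, was thus not detectable at 1000 UMIs.

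**Figure D4:**
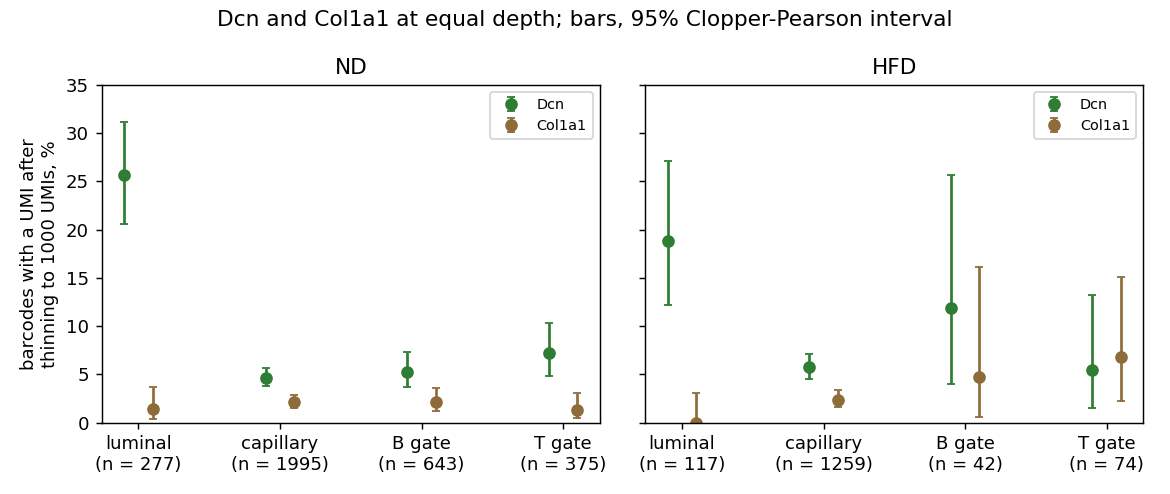
Share of barcodes with at least 1 UMI (vertical, percent, with 95% binomial intervals) after thinning each barcode to 1000 UMIs, by class and library. Dcn is found in 25.6% of ND luminal-marker barcodes against 4.66% of capillary-marker ones, while Col1a1 is near the level of B and T cell barcodes in both.

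Some genes were higher in mixed barcodes than in both references. Of 9559 genes with enough counts, 77 (0.806%) were at least 2-fold above both references in both libraries and 7 (0.0732%) at least 2-fold below. Among the highest by their smallest ratio were Ephx2, Gja4, Enpp6, Clu, Slco2a1, Cytl1, Bmx, Selp and Gkn3, with smallest log2 ratios from 2.94 for Ephx2 to 2.48 for Gkn3. All of these were high in luminal-marker barcodes, which made up a larger part of the mixed set than of the endothelial reference. Gja4, an arterial gap junction protein connexin 37, was at 484 CPM in ND luminal-marker mixed barcodes, 388 in their reference and 1.48 in capillary-marker mixed barcodes. In HFD Gja4 was at 632, 309 and 17.6. Within the luminal kind, none of these named genes was 2-fold above its reference in ND, and Gja4 was in HFD (1.03, interval 0.57 to 1.51).

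The 7 genes below both references were the haemoglobin genes Hbb-bt, Hba-a1, Hba-a2 and Hbb-bs, the immunoglobulin genes Ighm and Igha, and Pdhx, a subunit of the pyruvate dehydrogenase complex. Hbb-bs was at 109 CPM in ND mixed barcodes, 3432 in the endothelial and 553 in the fibroblast reference. In HFD it was at 974, 20689 and 4568. The summed level of these haemoglobin transcripts, which come from red blood cells, was thus lower in mixed barcodes of both diets. Counted by barcode the groups were closer, with at least 2 haemoglobin genes in 8.66% of ND and 61.5% of HFD mixed barcodes, 9.43% and 66.8% of the endothelial and 4.12% and 51.3% of the fibroblast reference.

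Markers of other cell types were found in the mixed barcodes and in both references. At least 2 smooth muscle or pericyte markers were found in 39 of 127 ND and 32 of 96 HFD mixed barcodes, and at least 2 macrophage markers in 17 and 13, although C1q genes were limited by the rule. For smooth muscle or pericyte markers these are 30.7% and 33.3%, against 4.99% and 9.61% of the endothelial and 16.3% and 10.0% of the fibroblast reference. For macrophage markers they are 13.4% and 13.5%, against 4.14% and 11.9% of the endothelial and 1.95% and 3.59% of the fibroblast reference. Mixed barcodes were also deeper than both references, and the part of depth in these shares was not tested. At least 2 markers of club cells, secretory cells of the airway, were found in 27 ND barcodes (21.3%, against 13.6% of the endothelial and 7.91% of the fibroblast reference) and 0 HFD ones, where all 4 markers were at 0. At least 2 adipocyte markers were found in 7 (5.51%) and 0. They were found in 2.62% and 3.10% of the endothelial and in 0.758% and 0.513% of the fibroblast reference. B cell markers were found in 4 and 2, and T cell markers in 5 and 2. For B cell markers these are 3.15% and 2.08%, against 3.16% and 1.03% of the endothelial and 1.08% and 0.769% of the fibroblast reference. For T cell markers they are 3.94% and 2.08%, against 1.64% and 2.17% of the endothelial and 0.325% and 0.769% of the fibroblast reference. Mesothelial markers, from the lining of the body cavities, were found in 2 (1.57%) and 3 (3.125%). They were found in 0 barcodes of the endothelial reference and in 1.84% and 4.10% of the fibroblast reference. Leaving macrophages aside, 66 ND (52.0%) and 70 HFD (72.9%) mixed barcodes had at least 2 markers of at least 1 of the other 7 classes. Haemoglobin genes, 1 of these classes, were by themselves found in 59 of 96 HFD mixed barcodes (61.5%). They were found in 66.8% of the HFD endothelial reference. The count over all 7 classes was not made for the references, so it is not particular to mixed barcodes.

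These markers were unevenly spread over the kinds. In ND the 4 club markers summed to 18158 CPM in luminal-marker and 195 in capillary-marker mixed barcodes, and 1 barcode held 70.7% of the luminal-marker sum. Adipocyte markers summed to 1583 in ND capillary-marker mixed barcodes, against 2.08 in luminal-marker ones, and were found in 5 of 79. Smooth muscle and pericyte markers were found in 14 of 37 ND and 10 of 20 HFD luminal-marker mixed barcodes, and in 23 of 79 and 15 of 64 capillary-marker ones. Macrophage markers were found in 9 of 37 and 3 of 20 luminal-marker ones and in 5 of 79 and 7 of 64 capillary-marker ones. The part of these classes in the differences between kinds was not tested.

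The mixed barcodes of the 2 diets were compared gene by gene as sums. For a floor of 100 UMIs over the diets and 4 in each, 3545 genes could be compared, of which 64 (1.81%) were at least 2-fold higher in HFD and 97 (2.74%) at least 2-fold lower. By the same measure 1.42% of genes were higher and 4.31% lower in the endothelial reference, and 1.28% and 3.34% in the fibroblast reference. The genes farthest higher in HFD were S100a9, S100a8, Mmp3, Hba-a2, Hbb-bs, Hba-a1, Serpina3n, Armcx4, Sfrp4 and Timp1, from 5.71 to 2.64 on the log2 scale. S100a9, a neutrophil alarmin, rested on 1 HFD barcode, which held 94.6% of its UMIs, and without the top barcode of each library the difference was 2.54. Without its own top barcodes S100a8 changed sign. Both S100a9 and S100a8 changed sign when at least 2 fibroblast genes were asked for, as given below. Serpina3n, an inhibitor of serine proteases induced in inflammation, was at 35.3 CPM in ND and 291 in HFD (log2 difference 3.04, interval 2.58 to 3.53). It also differed in the fibroblast reference, at 95.3 and 501 (2.39, 2.22 to 2.57). Timp1, an inhibitor of metalloproteinases, was at 16.5 and 102 in mixed barcodes (2.64, 1.94 to 3.40) and at 58.9 and 274 in the fibroblast reference (2.22, 1.99 to 2.45). Mmp3, the metalloproteinase stromelysin, was at 10.2 and 115 in mixed barcodes (3.49, 2.66 to 4.45) but at 255 and 278 in the fibroblast reference (0.12, -0.03 to 0.28).

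The genes farthest lower in HFD were Cfd, Scgb3a1, Car3, Cxcl10, Cbr2, Gpd1, Cidec, Pck1, Cxcl9 and Cox8b, from -6.33 to -3.12. Cfd, the adipokine adipsin, was at 627 CPM in ND and 7.80 in HFD, and its ND counts lay in capillary-marker mixed barcodes, at 1172. Car3, Gpd1, Cidec, Pck1 and Cox8b, all genes of fat cells, were likewise found there. Scgb3a1, a secretory protein of the airway, was at 903 in ND and 12.3 in HFD, and lay in luminal-marker mixed barcodes of ND. These differences moved with the adipocyte and club cell markers given above, and their cause was not tested. Cfd and Cidec are themselves among those adipocyte markers, so for them this was fixed in advance. Cxcl10, a chemokine induced by interferon, was at 132 and 5.57 (-4.57, -6.21 to -3.32), and was also lower in the HFD endothelial reference, at 58.7 and 14.1.

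Within the luminal kind, 3 of 9 vessel wall matrix genes, Mgp, Eln and Fbln5, were at least 2-fold higher in HFD and 0 lower (median log2 difference 0.62). Of 1143 genes, 52 (4.55%) were at least 2-fold higher in HFD and 50 (4.37%) lower in luminal-marker mixed barcodes. Over the 37 ND barcodes, Mgp ranged from 653 CPM through a median of 2412 to 12907, and over the 20 HFD barcodes from 2588 through 7895 to 16151. The summed level was 2996 in ND and 8845 in HFD, a log2 difference of 1.56 (interval 1.47 to 1.66). For Eln the ND barcodes ranged from 0 through 1408 to 7595 and the HFD ones from 272 through 6110 to 36117. Its sum was 1684 and 10724 (2.67, 2.56 to 2.78), and 1 HFD barcode held 23.2% of the HFD UMIs. Fbln5, the elastic fibre protein fibulin-5 (chromosome 12, 101746565 to 101819055, minus strand), ranged from 0 through 409 to 4822 in ND and from 257 through 2180 to 6524 in HFD (1.81, 1.64 to 1.99). For each of the 3 genes the median barcode was higher in HFD while the ranges of the diets overlapped. With 1 library per diet, a difference between diets and one between these particular libraries cannot be told apart.

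In luminal-marker barcodes without the fibroblast genes, the same 3 genes were within 2-fold between the diets. Mgp was at 3456 CPM in the ND and 5142 in the HFD luminal-marker reference (0.57, 0.45 to 0.70), Eln at 2257 and 2559 (0.18, 0.01 to 0.35) and Fbln5 at 736 and 1182 (0.68, 0.42 to 0.95). In HFD, luminal-marker barcodes with 0, 1, 2 and at least 3 fibroblast genes had Eln at 2559, 3597, 6667 and 10724, in the order of the gene number. Mgp was at 5142, 6045, 10364 and 8845, highest at 2 genes. In ND neither gene was in that order, with Eln at 2257, 1940, 1673 and 1684 and Mgp at 3456, 2793, 2803 and 2996. Clu, which encodes the chaperone clusterin, was in the order of the gene number in HFD, at 2474, 3481, 4481 and 4590.

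Other genes of the luminal kind varied in direction. Of 5 basement membrane genes, 3 were at least 2-fold higher in HFD and 0 lower (median 1.04). Of 7 fibroblast-list genes, 2 were higher and 1 lower (median 0.37). The shares over all genes were the 4.55% and 4.37% given above. Cytl1 ranged from 0 through 4775 to 9322 CPM over the ND and from 265 through 2504 to 6162 over the HFD luminal-marker mixed barcodes, and its sum differed by -0.79 on the log2 scale. Vwf was at 1244 and 1693 (0.45, 0.27 to 0.62). Bgn was at 2776 and 3394 (0.29, 0.17 to 0.41). Dcn, which the rule used, was at 2537 and 796 (-1.67, -1.89 to -1.46), while Col3a1, also of the rule, was at 199 and 472 (1.25, 0.85 to 1.64).

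In the capillary kind and in fibroblasts, Eln and Mgp were lower in HFD. Of 1826 genes, 50 (2.74%) were higher and 88 (4.82%) lower in HFD in capillary-marker mixed barcodes, and of 9 vessel wall matrix genes 0 were higher and 2 lower (median -0.09). Fbln5 was at 164 CPM in ND and 229 in HFD in capillary-marker mixed barcodes (0.48, 0.08 to 0.88) and at 584 and 414 in the fibroblast reference (-0.50, -0.62 to -0.38). Eln was at 570 CPM in ND and 112 in HFD (-2.35, -2.80 to -1.92), and at 1700 and 855 in the fibroblast reference (-0.99, -1.07 to -0.91). Mgp was at 2146 and 997 in capillary-marker mixed barcodes (-1.11, -1.26 to -0.95) and at 4954 and 1602 in the fibroblast reference (-1.63, -1.68 to -1.57). In each library 1 barcode held over 40% of the capillary-marker Mgp UMIs. Sfrp4, a secreted antagonist of Wnt signalling, was at 73.9 and 603 (3.03, 2.59 to 3.49), and 1 HFD barcode held 50.7% of the HFD count. With the highest 6% of Scrublet scores left out, the capillary-marker differences were -0.71 for Eln and -0.59 for Mgp, both within 2-fold.

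**Figure D5:**
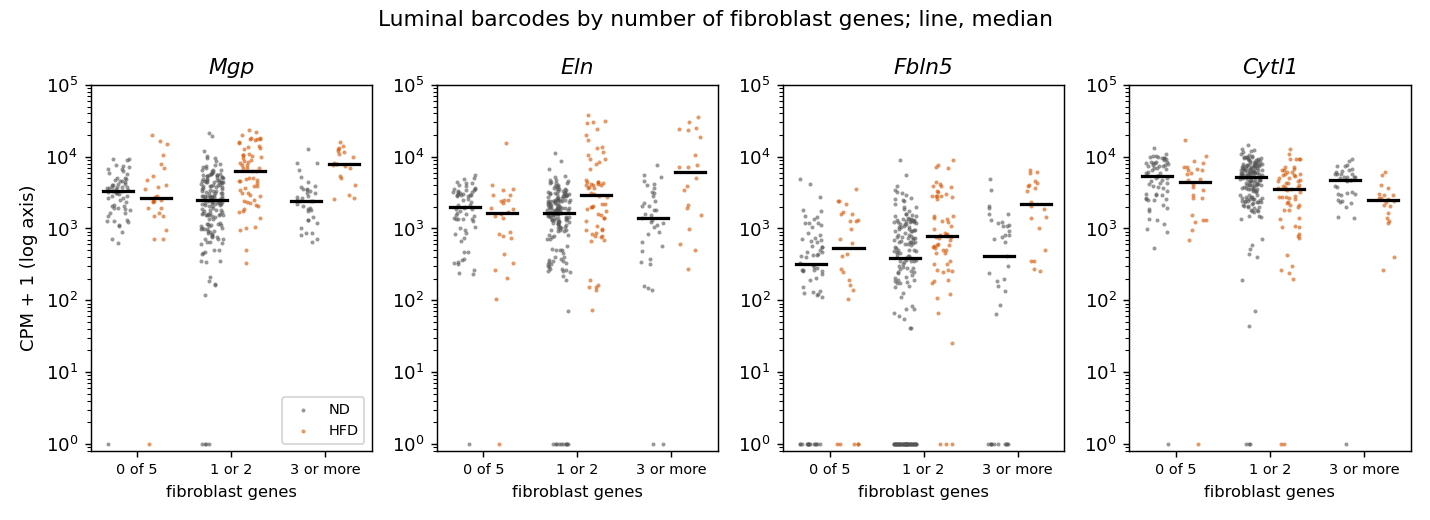
Level of Mgp, Eln, Fbln5 and Cytl1 per luminal-marker barcode (CPM plus 1, log axis) by the number of the 5 fibroblast genes it carried (0, 1 or 2, at least 3) and by diet, with a line at each median; barcodes with at least 3 are the mixed ones. Mgp, Eln and Fbln5 are higher in the HFD than in the ND mixed barcodes at the median, Cytl1 is lower, and the diets overlap for each gene.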

How the data were processed

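The authors deposited raw UMI counts per gene and barcode as 1 matrix per library, made with Cell Ranger (count file header 3.0.1) on mm10 with 31053 genes. The submitters' processing notes also name R 4.0.0, Seurat 3.2.0, UMI-tools and bcl2fastq. The pooled analysis tables of the series were not used here.

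Samples were grouped by their labels, 1 library per diet. The ND matrix held 10234 barcodes and the HFD matrix 14225, of which 5416 and 2739 were kept, with 27137322 and 17191279 UMIs in all. Mixed barcodes held 1275913 and 897721 of these. UMIs were summed over each group and divided by the group's total to give counts per 1000000 UMIs (CPM). Ratios are of these sums, with 95% exact conditional binomial intervals, shares have Clopper-Pearson and levels Poisson intervals, and a gene at 0 in a group was set to a floor of 3 UMIs over the group for counts of genes past 2-fold. Cells are not replicates, so no test was run and no p-value is given. Doublets were not removed, and were scored with Scrublet (scanpy 1.11.5, expected rate 6%). Python 3.11.15, numpy 2.4.6, scipy 1.17.1, pandas 2.3.3 and matplotlib 3.10.9 were used.

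Named genes are, per list, those with the most UMIs in mixed barcodes, the 10 farthest above and the genes below both references, and the 10 farthest higher and lower between diets. Pdgfra and Fbln5, list members outside the most abundant, and Lyz2 were named after their values were seen. A gene that the rule would name is not reported here. The members and the 28 gene lists were chosen with earlier results of these data known, and the division into luminal-marker and capillary-marker barcodes after the values were seen. On simulated counts for 3484 genes of the HFD and ND mixed sums, the 95% intervals covered the true ratio for 95.4% of genes. Of 200 genes changed 4-fold, 198 were past 2-fold, beside 6 unchanged ones. The counts were drawn from the Poisson model that the intervals assume, so this checks the calculation only. It held no spread between barcodes, so these figures do not carry over to genes with many UMIs in 1 barcode. Gene positions are from GENCODE M21 on GRCm38, the assembly that mm10 names. Alternatives varied the filters, the rule, the scaling and the limits 1 at a time.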

Additional observations from a re-analysis of the deposited data

Results flagged for a closer look

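Some barcodes that the filter left out, most of them with few UMIs or many mitochondrial ones, also met the gene part of the rule. There were 4 of 4818 in ND (0.083%) and 29 of 11486 in HFD (0.252%). Their median mitochondrial share was 50.7% and 35.6%.

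Mgp moved in opposite directions by diet in 2 groups of barcodes. Its log2 difference, HFD minus ND, was 1.56 in luminal-marker mixed barcodes and -1.63 in the fibroblast reference. The difference between these effects was not tested.

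Lyz2, the lysozyme gene of macrophages, was at -2.07 in luminal-marker mixed barcodes and at 1.86 in the fibroblast reference, and this difference was not tested either. Of its 258 UMIs in the ND luminal-marker mixed barcodes, 1 barcode held 42.2%, and macrophage markers were found in 9 of 37 ND and 3 of 20 HFD luminal-marker mixed barcodes.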

How the results depend on the processing

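No paired analysis was possible because each diet had 1 library. The values are limited by 1 pool of 2 aortas per diet, by depth, since deep barcodes meet a rule on detected genes more often, and by the filter on mitochondrial UMIs, which sets the denominators. Of 1395 values of named genes recomputed over 16 settings, 1012 stayed within their counting interval, 369 moved outside it, and 14 that were past 2-fold changed sign. In luminal-marker mixed barcodes Mgp, Eln and Fbln5 were higher in HFD in each alternative that gave a value. Some alternatives left few of these barcodes. Of the 37 in ND and 20 in HFD, 18 and 14 held at least 2 markers of another of the 7 classes. Only 2 in each library carried all 5 fibroblast genes. The causes of the changes listed here were not tested.

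With at most 20% mitochondrial UMIs the mixed share was 3.11% in ND and 5.32% in HFD, 5.06% and 7.02% of capillary-marker barcodes were mixed, the ND depth ratio to the endothelial reference was 1.59, and 4 genes were below both references. With at most 10% the shares were 6.86% and 16.1%, 34.5% of HFD luminal-marker barcodes and 8.81% and 10.8% of capillary-marker ones were mixed, the ND depth ratio to the endothelial reference was 1.39, the HFD ratio to the fibroblast reference 2.48, the HFD median of the fibroblast list -2.35, and 45 genes were above both references. The difference by diet then turned for Hbb-bs (-0.26) and Sfrp4 (-2.75) in mixed barcodes, and for Serpina3n (-0.64), Sfrp4 (-1.51) and Fn1 (-3.57) in capillary-marker ones.

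With at least 2 UMIs each of Pecam1 and Cdh5 the shares were 1.86% and 2.74% and the fibroblast-list medians -2.36 and -1.88. With at least 2 fibroblast genes the shares were 4.93% and 5.91%, the medians -2.80 and -2.03, the luminal-marker shares 37.1% and 41.0% and the capillary-marker ones 7.11% and 7.63%, with 3 genes below both references, 156 lower in HFD, and S100a9 (-2.50) and S100a8 (-3.55) turned. With at least 4 they were 1.20% and 2.41%, -1.25 and -0.83, and 2.88% and 6.84% of luminal-marker and 2.55% of ND capillary-marker barcodes, with 12 genes above and 12 below both references and 47 lower in HFD, and Col3a1 turned in luminal-marker (-0.84) and Acta2 in all mixed barcodes (1.42). With all 5 they were 0.702% and 1.35%, -1.11 and -0.46, 0.719% and 1.71% of luminal-marker and 1.65% and 2.38% of capillary-marker barcodes, with HFD depth ratios of 1.04 and 1.22, 3 genes above and 26 below both references, 34 higher and 28 lower in HFD, and Col3a1 (-0.83) and Acta2 (3.62) turned.

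With the highest 6% of Scrublet scores left out the shares were 1.63% and 2.52%, the capillary-marker ones 2.46% and 3.45%, and 12 genes were below both references. Without barcodes that held 2 markers of another class the ND share was 1.96%, its fibroblast-list median -1.80 and its capillary-marker share 2.58%, with 37 genes above and 4 below both references, 37 higher and 57 lower in HFD. Thinned to 1000 UMIs before every choice, the shares were 0.243% and 0.475%, the medians -1.14 and -0.59, the luminal-marker shares 0.943% and 1.82% and the capillary-marker ones 0.914% and 0.992%. Scaling by the median of ratios gave fibroblast-list medians of -2.30 and -1.75 and 11 genes below both references, and equal weight per barcode -1.78 and -1.09. A floor of 50 UMIs gave 123 genes higher and 195 lower in HFD. A 1.5-fold limit gave 173 above and 16 below both references, 230 higher and 320 lower in HFD.

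After seeing the data, 2 alternatives were added. With the kind taken from the larger sum of marker UMIs, Clu turned in capillary-marker barcodes (0.041). Without the barcode with most UMIs of the gene in each library, S100a8 turned in mixed barcodes (-0.18) and Cxcl9 in luminal-marker ones (0.019).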
